A study of Mus musculus with 16 samples.

Results

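Immediate early genes are the first genes that a cell transcribes after a growth factor, stress or wound signal, before any new protein is made. Their products are mostly transcription factors: FOS and JUN proteins pair into the AP-1 complex, EGR proteins are zinc finger activators, NR4A1 is an orphan nuclear receptor, and ATF3 is a stress-induced member of the ATF/CREB family. Such transcripts are short-lived, so their level reflects recent signalling, and in solid tissue they are also known to rise while cells are dissociated and sorted. The time between dissection and lysis is not given in the sources used here, and its part in the values below was not tested.

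The set described here holds 10 genes chosen by symbol, Fos, Fosb, Jun, Junb, Egr1, Egr2, Egr3, Nr4a1, Atf3 and Ier3, out of 16537 genes in the deposited table, and is read by 11 of its 24040 probes. The genes were chosen with earlier results of these data known. Counts and medians of the set beside those of all genes are thus descriptions, not tests of the set. Ier3, a regulator of cell survival, is not a transcription factor but belongs to the same early response. All 10 genes were among the 10426 genes tested, and the 1 probe left out by the filter on dim values was a probe of Junb (ILMN_1254833).

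RNA was taken from cells sorted without culture from 67NR mammary carcinomas, which had grown orthotopically in female Balb/c UbGFP hosts aged 6 to 8 weeks. Tumours were taken after 2 to 4 weeks, at about 10 mm across on average. The 4 groups, of 4 Illumina bead arrays each, were pericytes from endosialin knockout hosts, pericytes from wild-type hosts, endothelial cells from knockout hosts and endothelial cells from wild-type hosts. All hosts carried the GFP transgene and the same tumour line. Endosialin (Cd248) is a membrane glycoprotein of pericytes and fibroblasts. How many animals stand behind an array is not given in the sources used here, so the spread behind each p-value is that between arrays and may be technical. Whether pericytes and endothelial cells came from the same tumours is not given either, and the cell type tests treat their arrays as unpaired.

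The values are log2 intensities as the authors normalized them, with array medians between 7.18 and 7.21 and a lowest value of 6.58. Differences of probes near that floor are understated, and levels of different probes are not compared. The genotype check held: Cd248 averaged 7.09 ± 0.10 in knockout pericytes and 10.98 ± 0.21 in wild-type pericytes (SD, n = 4 each), and 7.27 ± 0.18 in knockout and 7.04 ± 0.20 in wild-type endothelial cells. The mean of 10 pericyte markers lay at 8.52 to 9.84 on the pericyte arrays and at 7.94 to 8.24 on the endothelial arrays, and that of 10 endothelial markers at 6.99 to 7.31 and at 9.30 to 9.47. The pericyte sort also carried fibroblast markers, whose mean over 8 genes was 10.20 to 11.08 there and 6.78 to 6.99 on the endothelial arrays. Mast cell markers, 7 genes, averaged 6.79 to 9.96 on the pericyte arrays and 7.12 to 7.31 on the endothelial arrays. Keratinocyte markers, 11 genes, averaged 6.82 to 9.75 and 6.81 to 6.89, and Cd3e of lymphocytes read 7.70 to 9.69 and 6.72 to 6.84. Luminal or tumour markers, 7 genes, averaged 6.87 to 8.36 and 6.80 to 7.18. Erythroid markers, 3 genes, averaged 6.78 to 7.07 and 7.01 to 8.59. The part of these cells in the values below was not tested. In sorted bulk RNA, more cells of a type and more RNA per cell cannot be told apart.

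Pericytes and endothelial cells were set against each other to ask how strongly each sorted population carried the early response. In both genotypes 8 of the 10 genes were higher in pericytes: Fos, Fosb, Jun, Junb, Egr1, Egr2, Egr3 and Nr4a1. Egr2 differed most, by 7.34-fold in knockout and 6.91-fold in wild-type hosts, and Egr3 came next, by 3.16-fold and 3.55-fold. Atf3 went the other way in wild-type hosts, where it was 1.72-fold lower in pericytes. Ier3 passed in neither genotype. Of all genes tested, 35.9% passed in knockout hosts, 17.4% higher and 18.5% lower in pericytes, and 36.2% passed in wild-type hosts, 17.1% higher and 19.1% lower (limma, Benjamini-Hochberg adjusted p under 0.05). The median difference over the 10 genes was 0.77 on the log2 scale in knockout and 0.79 in wild-type hosts, against -0.04 and -0.03 over all genes tested.

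**Figure D1:**
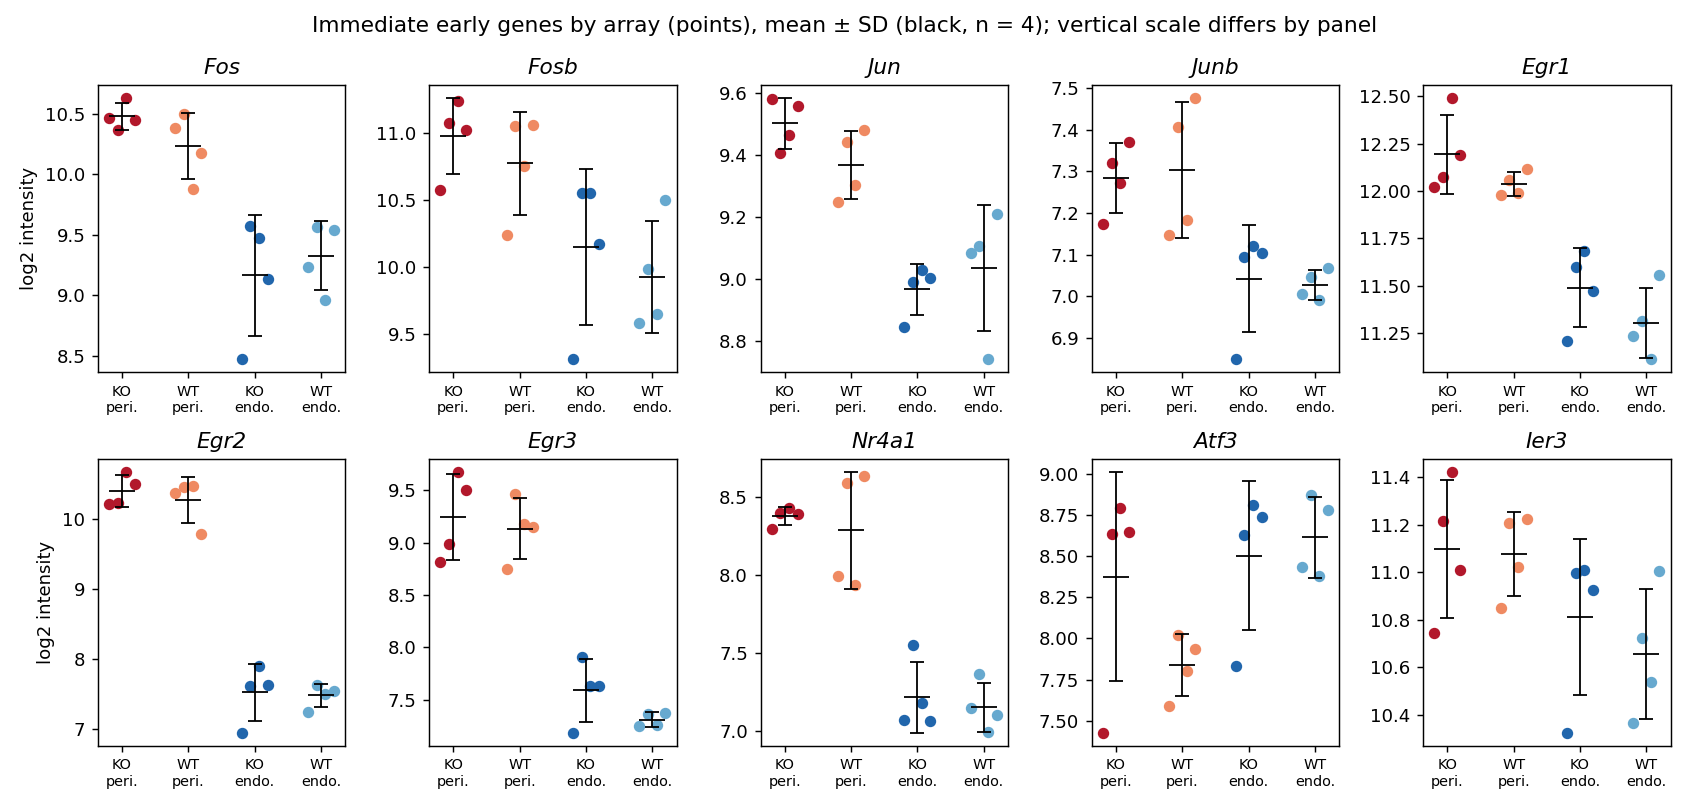
Log2 intensity of each of the 10 genes on the 16 arrays, with points for arrays and black bars for group mean ± SD (n = 4), knockout (KO) left of wild type (WT) and pericytes left of endothelial cells, on a vertical scale that differs by panel. Fos, Jun, Junb, Egr1, Egr2, Egr3 and Nr4a1 have all pericyte arrays above all endothelial arrays, by a narrow margin for Jun and Junb. Fosb and Ier3 overlap, and Atf3 is low on all wild-type pericyte arrays and on 1 knockout pericyte array.

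The 4 genes of the FOS and JUN families in the set, which encode subunits of AP-1, were higher in pericytes in both genotypes. Fos, the founding FOS subunit, read 10.46, 10.37, 10.63 and 10.45 in knockout pericytes, 10.38, 10.50, 9.88 and 10.18 in wild-type pericytes, 8.47, 9.57, 9.48 and 9.13 in knockout endothelial cells, and 9.24, 9.56, 8.96 and 9.54 in wild-type endothelial cells. Every pericyte array lay above every endothelial array for Fos. It was higher in pericytes by 1.32 in knockout hosts (SE 0.20, 2.49-fold, limma, adjusted p = 3.06e-05) and by 0.91 in wild-type hosts (SE 0.20, 1.88-fold, limma, adjusted p = 0.00125). The Fos promoter is a textbook switch for growth factor and cyclic AMP signals. The 250 bases before its listed start, at chr12:85473640-85473889 on the plus strand of GRCm38.p6 (RefSeq), are printed because Fos is the prototype of the family, with capitals for the letters TGACG, the core of a cyclic AMP response element, which begin 129 and 66 bases before the start.
Fos: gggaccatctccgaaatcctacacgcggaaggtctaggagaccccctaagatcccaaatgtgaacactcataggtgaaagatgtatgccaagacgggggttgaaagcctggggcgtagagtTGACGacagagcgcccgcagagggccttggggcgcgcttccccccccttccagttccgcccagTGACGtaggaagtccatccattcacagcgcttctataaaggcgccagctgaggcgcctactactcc

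Fosb, a second FOS subunit, read 10.58, 11.07, 11.24 and 11.02 in knockout pericytes, 10.24, 11.05, 10.75 and 11.06 in wild-type pericytes, 9.31, 10.55, 10.55 and 10.17 in knockout endothelial cells, and 9.58, 9.98, 9.65 and 10.50 in wild-type endothelial cells. In knockout hosts the cell types did not overlap, and in wild-type hosts pericyte replicate 1 lay within the endothelial range. The difference was 0.83 in knockout hosts (SE 0.26, 1.78-fold, limma, adjusted p = 0.017) and 0.85 in wild-type hosts (SE 0.26, 1.80-fold, limma, adjusted p = 0.0151). These calls were lost when some single arrays were left out. In knockout hosts the adjusted p (limma) was 0.0696 without endothelial replicate 1, where the difference was 0.55. Without pericyte replicate 3 it was 0.054, where the difference was 0.74. In wild-type hosts the adjusted p (limma) was 0.0529 and 0.0506 without endothelial replicates 1 and 3, where the differences were 0.73 and 0.75.

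Jun, a DNA-binding partner of FOS proteins, averaged 9.50 ± 0.08 in knockout pericytes, 9.37 ± 0.11 in wild-type pericytes, 8.97 ± 0.08 in knockout endothelial cells and 9.04 ± 0.20 in wild-type endothelial cells (n = 4 each, ± SD), and no pericyte array reached down to an endothelial one. The difference was 0.54 in knockout hosts (SE 0.10, 1.45-fold, limma, adjusted p = 0.000229) and 0.33 in wild-type hosts (SE 0.10, 1.26-fold, limma, adjusted p = 0.0115). Without wild-type endothelial replicate 3, the lowest array for Jun at 8.74, the wild-type difference was 0.23 with an adjusted p of 0.0506.

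Junb, a JUN protein that often restrains JUN, was read near the floor. Its brighter probe (ILMN_1220034) averaged 7.28 ± 0.08 in knockout pericytes, 7.30 ± 0.16 in wild-type pericytes, 7.04 ± 0.13 in knockout endothelial cells and 7.03 ± 0.04 in wild-type endothelial cells (n = 4 each, ± SD). It lay above the array median on 3 knockout and 2 wild-type pericyte arrays and on 0 endothelial arrays, so it entered the test through the pericyte arrays. It passed with a difference of 0.24 in knockout hosts (limma, adjusted p = 0.0444) and 0.28 in wild-type hosts (limma, adjusted p = 0.0222). Leaving out 1 array brought the adjusted p to between 0.0511 and 0.0782 in wild-type hosts for pericyte replicates 2 and 4 and endothelial replicates 1 and 3. In knockout hosts it came to between 0.0516 and 0.15 without pericyte replicate 2, 3 or 4, knockout endothelial replicate 1, 2 or 4 or wild-type endothelial replicate 1, 3 or 4. With the arrays of the compared groups alone it was 0.0518 in knockout and 0.0514 in wild-type hosts. The other probe (ILMN_1254833), tested among all 24040 probes, differed by 0.03 in knockout hosts (limma, adjusted p = 0.728) and 0.00 in wild-type hosts (limma, adjusted p = 0.986) and lay below the array median on all arrays.

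The EGR genes, which encode zinc finger factors that bind GC-rich promoters, held the largest differences of the set. Egr2, best known for its role in Schwann cells and the hindbrain, read 10.21, 10.23, 10.68 and 10.50 in knockout pericytes, 10.38, 10.46, 10.47 and 9.79 in wild-type pericytes, 6.95, 7.62, 7.91 and 7.63 in knockout endothelial cells, and 7.25, 7.63, 7.51 and 7.55 in wild-type endothelial cells. The lowest pericyte array stood well above the highest endothelial array. The difference was 2.88 in knockout hosts (SE 0.18, 7.34-fold, limma, adjusted p = 3.98e-10) and 2.79 in wild-type hosts (SE 0.18, 6.91-fold, limma, adjusted p = 5.91e-10). Among the 10426 genes, ordered from the most to the least positive difference, Egr2 stood at place 56 in knockout and 62 in wild-type hosts. On knockout endothelial replicate 1 Egr2 lay below the array median, and on the other 7 endothelial arrays above it.

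RefSeq lists 5 starts for Egr2, and 4 of their windows hold a CArG box, the motif of serum response factor, on 1 shared site in 3 of them. The 250 bases before one of them, at chr10:67537619-67537868 on the plus strand of GRCm38.p6, are printed because Egr2 differed most between the cell types. Capitals mark the shared CArG box, which begins 72 bases before that start. The window was chosen because it holds the match.
Egr2: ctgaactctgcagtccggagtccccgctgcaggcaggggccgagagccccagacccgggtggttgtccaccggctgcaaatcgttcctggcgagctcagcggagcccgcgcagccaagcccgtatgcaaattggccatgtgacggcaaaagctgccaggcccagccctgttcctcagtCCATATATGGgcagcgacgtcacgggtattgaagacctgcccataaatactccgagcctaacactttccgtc

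Egr3, a close relative of Egr1 and Egr2, read 8.81, 8.99, 9.68 and 9.51 in knockout pericytes, 8.75, 9.47, 9.18 and 9.14 in wild-type pericytes, 7.18, 7.91, 7.63 and 7.63 in knockout endothelial cells, and 7.24, 7.36, 7.25 and 7.37 in wild-type endothelial cells. The cell types did not overlap in either genotype. The difference was 1.66 in knockout hosts (SE 0.18, 3.16-fold, limma, adjusted p = 7.21e-07) and 1.83 in wild-type hosts (SE 0.18, 3.55-fold, limma, adjusted p = 1.98e-07). Egr1, the most widely induced EGR gene, was bright everywhere, at 12.19 ± 0.21 in knockout pericytes, 12.04 ± 0.06 in wild-type pericytes, 11.49 ± 0.21 in knockout endothelial cells and 11.31 ± 0.19 in wild-type endothelial cells (n = 4 each, ± SD). Its arrays were again fully parted by cell type. The difference of Egr1 was 0.70 in knockout hosts (SE 0.12, 1.63-fold, limma, adjusted p = 0.000128) and 0.73 in wild-type hosts (SE 0.12, 1.66-fold, limma, adjusted p = 8.37e-05).

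Nr4a1, also called Nur77, read 8.30, 8.40, 8.43 and 8.39 in knockout pericytes, 7.99, 8.59, 7.94 and 8.64 in wild-type pericytes, 7.07, 7.55, 7.18 and 7.07 in knockout endothelial cells, and 7.15, 7.37, 7.00 and 7.10 in wild-type endothelial cells. The wild-type pericyte arrays fell into a lower and a higher pair, both above all endothelial arrays. The difference was 1.16 in knockout hosts (SE 0.15, 2.23-fold, limma, adjusted p = 5.35e-06) and 1.13 in wild-type hosts (SE 0.15, 2.20-fold, limma, adjusted p = 6.86e-06). Nr4a1 lay above the array median on all 8 pericyte arrays but on 1 array of each endothelial group, so like Junb it entered the test through the pericyte arrays. With no filter, when 16537 genes were tested, 8 of the 10 genes passed in knockout hosts and 9 in wild-type hosts, as with the filter.

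The 250 bases before the start of Nr4a1, at chr15:101266596-101266845 on the plus strand of GRCm38.p6 (RefSeq), are shown beside those of Fos because both hold the TGACG core more than once. Here the core lies on the other strand, as CGTCA in capitals, and the runs begin 233, 213, 69 and 40 bases before the start.
Nr4a1: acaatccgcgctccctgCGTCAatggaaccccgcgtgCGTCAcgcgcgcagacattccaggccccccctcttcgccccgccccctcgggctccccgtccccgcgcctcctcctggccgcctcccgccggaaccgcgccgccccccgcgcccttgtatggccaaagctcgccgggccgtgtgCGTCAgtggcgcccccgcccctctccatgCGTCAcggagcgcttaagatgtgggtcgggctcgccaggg

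Motifs were searched on both strands of the 250 bases before each listed start for the 8 genes with an entry in the table. The core TGACG, which also lies inside TGACGTCA, was found for 6 of them (Atf3, Egr2, Fos, Fosb, Junb and Nr4a1), where 17.8% of all 32851 windows hold it. The CArG box was found for 1, Egr2, where 1.47% of windows hold it. Bases farther from a start were not searched, and Egr1 and Egr3 were not among the genes searched. A missing match is thus no statement on the whole promoter. The EGR motif GCGNGGGCG was found for 2, Fosb and Nr4a1, where 4.7% hold it, and TGACGTCA and the AP-1 motif TGANTCA for 0, where 1.55% and 6.75% hold them. A gene with several starts had several windows and was counted if any of them matched, while the shares count single windows. Gene counts and window shares are thus not in the same unit. A match is a run of letters, not a bound site.

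The test called neither Atf3 nor Ier3 higher in pericytes. Ier3 read 10.74, 11.22, 11.42 and 11.01 in knockout pericytes, 10.85, 11.21, 11.02 and 11.22 in wild-type pericytes, 10.32, 11.00, 11.01 and 10.92 in knockout endothelial cells, and 10.36, 10.72, 10.54 and 11.00 in wild-type endothelial cells. Its ranges overlapped in both genotypes. The difference was 0.28 in knockout hosts, with a 95% interval from -0.08 to 0.64 (limma, adjusted p = 0.217), and 0.42 in wild-type hosts, with an interval from 0.06 to 0.78 (limma, adjusted p = 0.0648). The wild-type difference of Ier3 passed with the arrays of those 2 groups alone (limma, adjusted p = 0.0432), with a replicate block (limma, adjusted p = 0.00994), and without knockout pericyte replicate 1, wild-type pericyte replicate 1, knockout endothelial replicate 1 or wild-type endothelial replicate 4, when adjusted p lay between 0.0253 and 0.0489 (limma).

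Atf3 read 7.43, 8.63, 8.80 and 8.65 in knockout pericytes, 7.59, 8.02, 7.80 and 7.94 in wild-type pericytes, 7.83, 8.63, 8.81 and 8.74 in knockout endothelial cells, and 8.43, 8.87, 8.38 and 8.78 in wild-type endothelial cells. All 4 wild-type pericyte arrays lay below all 4 wild-type endothelial arrays, and the knockout arrays overlapped. The difference was -0.13 in knockout hosts, with a 95% interval from -0.66 to 0.41 (limma, adjusted p = 0.747), and -0.78 in wild-type hosts (SE 0.25, limma, adjusted p = 0.0216). The knockout difference was 0.19 without knockout pericyte replicate 1 (limma, adjusted p = 0.502). The wild-type call was lost without pericyte replicate 1 or endothelial replicate 2 or 4, when differences of -0.69 to -0.72 had adjusted p between 0.0561 and 0.0652 (limma).

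By arrays rather than by test, 8 genes in knockout hosts had all pericyte arrays above all endothelial arrays, where 17.3% of all genes tested did and 36.6% were parted in either direction. In wild-type hosts 7 genes had all pericyte arrays above, where 16.3% did, and 1, Atf3, had all below, where 17.2% did and 33.6% were parted in either direction. In the order of group means both pericyte groups stood above both endothelial groups for every gene but Atf3, whose order was wild-type endothelial cells, knockout endothelial cells, knockout pericytes and wild-type pericytes. Groups of 1 cell type that differed in genotype overlapped for all 10 genes.

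**Figure D2:**
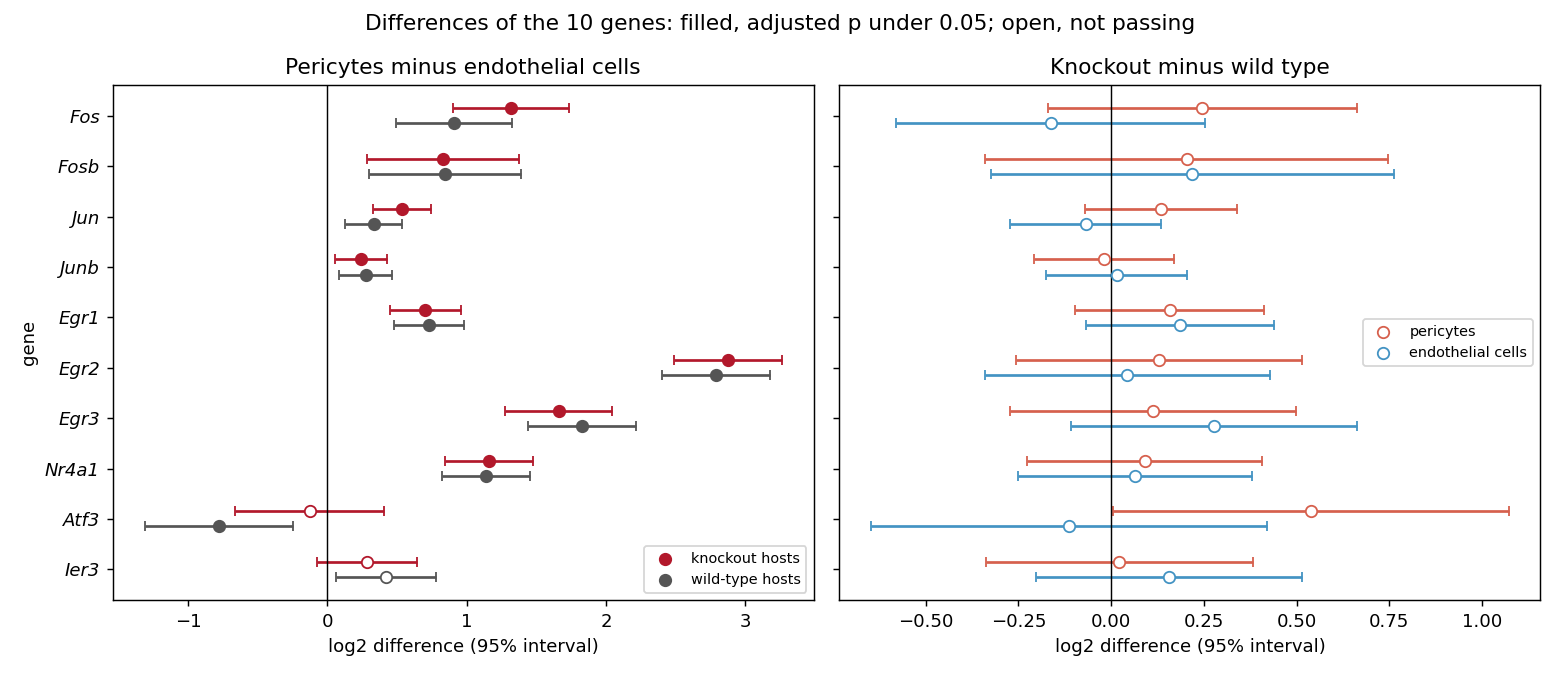
Log2 differences of the 10 genes with 95% intervals from limma, for pericytes minus endothelial cells (left, knockout hosts above wild-type hosts) and for knockout minus wild type (right, pericytes above endothelial cells). On the left 8 genes are filled on the positive side in both genotypes, from 0.24 for Junb to 2.88 for Egr2, and on the right no gene passed the threshold.

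The effect of host genotype was tested next, to ask whether loss of endosialin changed the early response in the cells that make it or in the vessel lining. None of the 10 genes passed in pericytes (limma), where 0.317% of all genes tested passed. An unadjusted p under 0.05 (limma) was found for 1, Atf3, and for 743 of the 10426 genes tested. Differences of the 10 genes ran from -0.02 for Junb to 0.54 for Atf3, with 9 of 10 positive and a median of 0.13, against -0.01 over all genes. The largest after Atf3 were Fos at 0.25, with a 95% interval from -0.17 to 0.66, and Fosb at 0.20, with an interval from -0.34 to 0.75. For Egr2 the interval ran from -0.26 to 0.52, for Egr1 from -0.10 to 0.41 and for Nr4a1 from -0.23 to 0.41. On all 10 genes the knockout and wild-type pericyte arrays overlapped, while 3.01% of all genes were parted and 1.38% had all knockout arrays above.

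Atf3 was the 1 gene that passed in pericytes when a single array was left out. Its difference was 0.54 (SE 0.25, 95% interval 0.01 to 1.07, limma, adjusted p = 0.695). Knockout replicates 2, 3 and 4, at 8.63, 8.80 and 8.65, lay above all wild-type pericyte arrays, and knockout replicate 1, at 7.43, lay below them. Without knockout replicate 1, Atf3 was higher in knockout pericytes by 0.86 (SE 0.19, limma, adjusted p = 0.0307), while 130 of 10426 genes passed in place of 33. That same array differed from the other knockout pericyte arrays in markers of other cells. Its keratinocyte mean lay within the range of the wild-type pericyte arrays. The mean of 11 keratinocyte markers was 7.48, 9.63, 9.75 and 9.22 in knockout pericyte replicates 1 to 4, and 6.96, 6.82, 7.70 and 7.15 in wild-type pericytes, and endothelial arrays read 6.81 to 6.89. Of the 11 markers, 5 lay above the array median in knockout replicate 1 and all 11 in the other knockout pericyte arrays, against 0 to 9 in wild-type pericytes. The mean of 7 mast cell markers was 7.07, 8.83, 9.66 and 8.75 in knockout pericytes, and 6.79, 7.68, 9.31 and 9.96 in wild-type pericytes. The mean of 5 macrophage and granulocyte markers was 6.82, 7.44, 7.42 and 7.62 in knockout and 6.78, 7.01, 7.17 and 7.01 in wild-type pericytes. At most 2 of 5 lay above the array median. For 7 luminal or tumour markers the mean was 7.05, 7.74, 7.80 and 8.36 in knockout and 6.96, 6.87, 7.47 and 7.36 in wild-type pericytes. In knockout pericytes Cd3e of lymphocytes read 8.03, 9.69, 9.46 and 8.82, overlapping wild type. There replicate 1 had the highest fibroblast and erythroid means. In wild-type pericytes Atf3 read 7.80 and 7.94 on the arrays where the mast cell mean reached 9.31 and 9.96, and endothelial arrays with a keratinocyte mean of 6.81 to 6.89 read up to 8.87. Without knockout pericyte replicates 2, 3 and 4, a choice made after seeing the data, the knockout pericytes were replicate 1 alone, an array singled out for its values, so its differences are given with no test. Against wild-type pericytes Atf3 then differed by -0.41, and against knockout endothelial cells by -1.08 for Atf3, 0.43 for Fosb, 0.13 for Junb and 0.53 for Egr1. Without knockout pericyte replicate 1, every knockout pericyte array had a higher keratinocyte mean than every wild-type pericyte array. Host genotype and keratinocyte markers thus cannot be told apart in that comparison. The part of keratinocytes and of the other cells above in the Atf3 values was not tested.

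**Figure D3:**
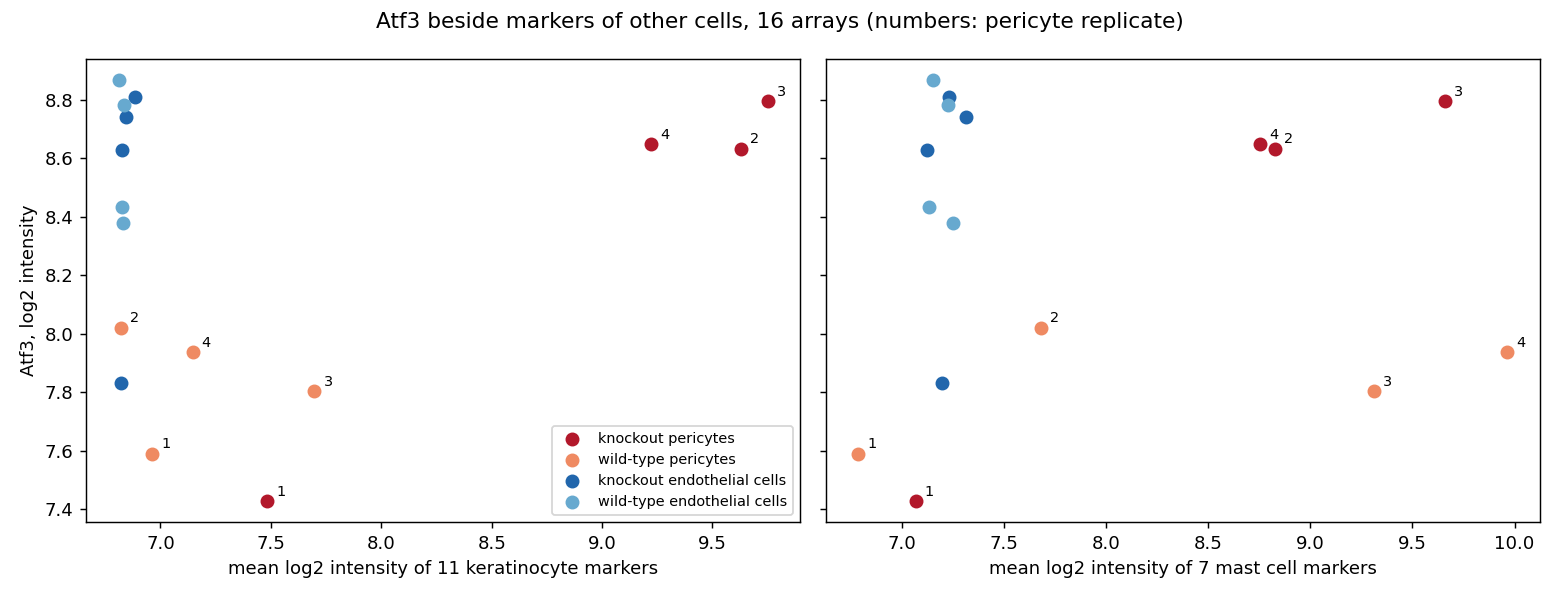
Atf3 log2 intensity (vertical) against the mean log2 intensity of 11 keratinocyte markers (left) and 7 mast cell markers (right) on the 16 arrays, coloured by group, with replicate numbers beside pericyte arrays. Knockout pericyte replicates 2 to 4 are high on all axes and replicate 1 is low, while endothelial arrays reach 8.87 for Atf3 with keratinocyte means of at most 6.89.

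In endothelial cells 0 of the 10 genes passed (limma), where 0.00959% of all genes tested passed. The unadjusted p (limma) was under 0.05 for 0 of them, against 387 of the 10426 genes tested. Differences of the 10 genes ran from -0.16 for Fos to 0.28 for Egr3, with 7 of 10 positive and a median of 0.05. For Egr3 the 95% interval ran from -0.11 to 0.66, for Egr1, at 0.19, from -0.07 to 0.44, and for Fos from -0.58 to 0.25. All 10 genes overlapped between knockout and wild-type endothelial cells, while 2.00% of all genes were parted. Without knockout endothelial replicate 1, the lowest array for Fos at 8.47 and for Atf3 at 7.83, the differences of these genes were 0.07 and 0.11.

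The difference between these 2 knockout effects also tests whether the cell type difference depended on genotype. It passed for 0 of the 10 genes (limma), where 0.0192% of all genes tested passed. The unadjusted p (limma) was under 0.05 for 0 of the 10 genes, against 390 of the 10426 genes tested. The difference of effects was largest for Atf3, at 0.65 (95% interval -0.10 to 1.41), and for Fos, at 0.41 (95% interval -0.18 to 1.00). For Egr2 it was 0.09, with an interval from -0.46 to 0.63, and for Nr4a1 0.02, with an interval from -0.42 to 0.47. Without knockout pericyte replicate 1 the value for Atf3 was 0.97 (limma, adjusted p = 0.208).

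Within groups, arrays differed in how many of the 10 genes lay above the group mean. In knockout pericytes replicate 2 had 5 genes above and 5 below, replicate 1 lay below its group mean for 9 of 10 genes and replicate 3 above it for 8, with mean deviations of -0.26 and 0.22. In wild-type pericytes replicate 1 was below for 8 genes (-0.18) and replicate 2 above for all 10 (0.19). Knockout endothelial replicate 1 was the farthest from its group, below the mean for all 10 genes by 0.44 on average and the lowest array for 9 of them. Over 3 erythroid markers it averaged 8.59, against 7.01, 7.11 and 7.67 on the other knockout endothelial arrays and 7.58 to 8.30 in wild type. The part of erythroid cells in these deviations was not tested. In wild-type endothelial cells replicates 1 and 3 were below for 9 genes each (-0.13 and -0.17), and replicates 2 and 4 above for 10 and 9 (0.11 and 0.18).

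**Figure D4:**
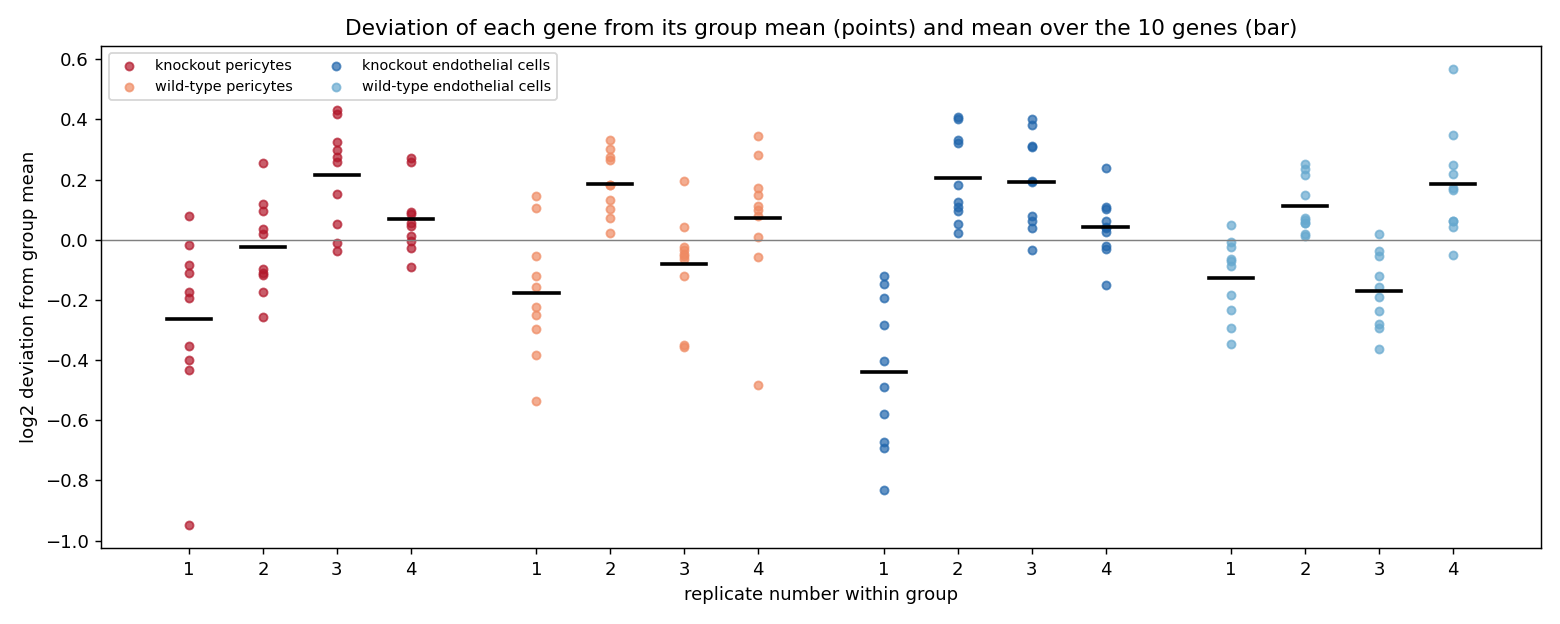
Deviation of each of the 10 genes from its group mean, in log2 units, on every array (points) with the mean over the 10 genes (black bar). The bars run from -0.44 on knockout endothelial replicate 1 to 0.22 on knockout pericyte replicate 3, and on 4 arrays all 10 genes lie on 1 side of 0.

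As a description over the 16 arrays, with no test since genes of 1 array share its RNA and amplification, the deviations of Fosb and Ier3 had the closest match of all pairs, at a Pearson coefficient of 0.94, followed by Egr1 with Ier3 at 0.86 and Atf3 with Ier3 at 0.85. Egr2 and Nr4a1 stood at -0.08 and Egr2 with Jun at 0.07, the lowest pairs. Among genes outside the set, the 10 with the highest coefficient against the mean deviation of the set ranged from 0.88 to 0.95. They were LOC100048105, Atf4, Ifrd1, Klf4, Ncapg, 3010026O09Rik, 1700064E03Rik, Ccrn4l, Slc25a25 and 1500012F01Rik. Atf4, a stress-response factor that can pair with AP-1 proteins, and Klf4, a zinc finger factor, stood at 0.93 and 0.91. Ccrn4l, now Noct, is the rhythmic gene nocturnin, Slc25a25 a mitochondrial carrier, and Ncapg a condensin subunit of dividing cells. Of these, Klf4 and Ifrd1 were higher in pericytes in both genotypes, and Ncapg was lower, by -0.87 in knockout hosts (limma, adjusted p = 1.47e-05) and -0.57 in wild-type hosts (limma, adjusted p = 0.0011). Klf4 was higher by 1.20 in knockout hosts (limma, adjusted p = 0.00203) and 1.06 in wild-type hosts (limma, adjusted p = 0.00525), and Ifrd1 by 1.09 (limma, adjusted p = 0.00303) and 0.86 (limma, adjusted p = 0.0164). Atf4 was higher by 0.33 in knockout hosts (limma, adjusted p = 0.015), and LOC100048105 passed in neither genotype.

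Further genes of the pathway were taken from 6 lists and are given as counts. Of all genes tested, 17.4% were higher and 18.5% lower in pericytes of knockout hosts, and 17.1% higher and 19.1% lower in wild-type hosts. A gene dim in 1 cell type could pass the filter through the arrays of the other, where it was higher. Other AP-1 genes showed no common direction: of 8 tested of 11, 1 was higher and 0 lower in pericytes of knockout hosts, and 0 were higher and 1 lower in wild-type hosts. They were Atf4 in knockout hosts and the FOS relative Fosl2, lower by 0.33 in wild-type hosts (-0.33, limma, adjusted p = 0.0244). Other primary response regulators of transcription held more calls. Of 24 tested of 27, 11 were higher and 4 lower in knockout hosts and 11 higher and 2 lower in wild-type hosts, with medians of 0.31 and 0.28. Cebpb, a factor of inflammatory gene control, was higher by 1.47 and 1.44, Id2, an inhibitor of helix-loop-helix factors, by 1.23 and 1.14, and Nfkbiz, a nuclear NF-kappa-B cofactor, by 0.80 in wild-type hosts. Endothelial means of Cebpb, 6.96 and 6.93, and of Id2, 7.00 and 7.08, lay below the array medians. Cebpb and Id2 thus entered the test largely through the pericyte arrays. Id1, a relative of Id2, was lower by 0.74 in knockout hosts (-0.74, limma, adjusted p = 0.0143).

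Genes that feed back on the response were also counted. Of 17 tested of 21, 6 were higher and 3 lower in knockout hosts and 8 higher and 3 lower in wild-type hosts. Dusp4, a phosphatase of MAP kinases, was higher in pericytes by 1.56 in knockout hosts (limma, adjusted p = 1.68e-05) and 1.47 in wild-type hosts (limma, adjusted p = 3.22e-05). Gadd45b, a stress kinase regulator, was higher by 1.41 and 1.47, the receptor inhibitor Errfi1 by 1.11 and 1.14, and the NF-kappa-B inhibitor Tnfaip3 by 0.87 and 1.01. Endothelial means of Dusp4, 7.21 and 7.05, and of Gadd45b, 7.21 and 7.16, lay near or below the array medians.

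Effectors of the response moved in both directions. Of 23 tested of 25, 10 were higher and 6 lower in knockout hosts and 12 higher and 7 lower in wild-type hosts. Ptgs2, the inducible cyclooxygenase, was 4.76-fold and 4.41-fold higher in pericytes (limma, adjusted p = 1.39e-10 and 2.72e-10), and Phlda1 3.32-fold and 3.78-fold. Endothelial means of Ptgs2, 6.90 and 6.93, lay below the array medians, so it entered the test largely through the pericyte arrays. The cytokine Il6 was 3.30-fold higher in knockout hosts (limma, adjusted p = 1.47e-06). The kinase Plk2 was lower, with log2 differences of -1.67 and -2.03 (adjusted p = 2.23e-06 and 1.77e-07, limma), and the growth factor Hbegf by -1.83 in wild-type hosts (limma, adjusted p = 3.11e-05).

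Kinases and factors upstream of immediate early genes were also counted. Of 14 tested of 19, 1 was higher and 3 lower in pericytes of knockout hosts and 1 higher and 4 lower in wild-type hosts. Elk3, a ternary complex factor that acts with serum response factor, was lower by -1.37 in knockout and -1.32 in wild-type hosts (limma, adjusted p = 1.33e-08 and 2.21e-08), the kinase Rps6ka3 by -0.55 and -0.80, and the MAP kinase ERK1 gene Mapk3 by -0.46 and -0.49. Mapk9, a JNK kinase gene, was higher by 0.54 in knockout hosts (limma, adjusted p = 0.0089), and Elk4 was lower by -0.37 in wild-type hosts (limma, adjusted p = 0.002). Heat shock genes, another readout of cell stress, were higher for 3 and lower for 0 of 11 tested of 12 in knockout hosts and higher for 3 and lower for 1 in wild-type hosts. The chaperone genes Dnajb1, higher by 0.67 and 0.54, and Hspa5, higher by 0.43 and 0.43, were examples, and Hspb1 was lower by -0.81 in wild-type hosts (limma, adjusted p = 0.00185). Counted in either direction, the upstream and heat shock lists lay near or below the share of all genes that passed. That share was 35.9% in knockout and 36.2% in wild-type hosts.

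By host genotype 0 genes of these 6 lists passed in pericytes and 0 in endothelial cells (limma). The smallest unadjusted p values in pericytes belonged to genes such as Hbegf, at 0.85 (limma, adjusted p = 0.408), the kinase gene Sgk1, at 0.47 (limma, adjusted p = 0.543), and the phosphatase gene Dusp6, at 0.32 (limma, adjusted p = 0.628). In endothelial cells Spry2, a feedback inhibitor of receptor kinases, stood at 0.35 (limma, adjusted p = 1).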

How the data were processed

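RNA was amplified, and per the labels' protocols 1.6 µg of cRNA went onto each Illumina MouseWG-6 v2.0 array. The deposited values are log2 intensities; the submitters' processing notes name GenomeStudio and lumi. The background correction, the transform and the method between arrays are not stated there. Of per-sample columns, 0 belong to other series.

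A probe was kept when it lay above its array's median on at least 4 of 16 arrays, and the kept probe with the highest mean stood for a gene (10426 genes). limma 3.58.1 (R 4.3.3) fitted the means of the 4 groups (12 residual and 5.58 prior degrees of freedom), with two-sided moderated tests and Benjamini-Hochberg adjustment over all genes at 0.05. The number of arrays limits the precision. The fit was tested on simulated data.

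The 10 genes and the gene lists were chosen with earlier results of these data known. Each list's genes were named by the largest differences that passed (up to 4) or else the smallest p (2), and outside genes by likeness (10). Alternatives covered the filter, probe choice, samples in the fit, variance, array weights, quantile normalization, a replicate block and the repository's value table. Promoters are from RefSeq, GRCm38.p6. A gene of the lists is not reported here.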

Additional observations from a re-analysis of the deposited data

Results flagged for a closer look

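In 5 of 44 sets of 4 arrays, formed by the 11 probes and 4 groups, 1 array lay far from the other 3 relative to the group's range; chance flags about 1 in 20. Atf3 was low in knockout pericyte replicate 1, at 7.43. Egr2 was low in wild-type pericyte replicate 4, at 9.79. Knockout endothelial replicate 1 was low for Ier3, at 10.32, and for the brighter Junb probe, at 6.85. The dimmer Junb probe was high in wild-type endothelial replicate 3, at 6.97, which is below the array medians.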

How the results depend on the processing

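Of 17 member differences that passed, 0 turned in sign over 456 alternative values, and 27 of those values missed the threshold. Among the differences that did not pass, 9 values passed and 62 turned in sign; where the construction does not show a cause, the cause was not tested. The values that missed or passed include some from leaving knockout pericyte replicate 1 alone in its group, which are not read as tests. Counts of all genes for knockout minus wild type in pericytes, 33 here, were 14 with no filter, 7 with a stricter filter, 1 with only the compared arrays, 16 with a trended, robust variance and 96 with array weights. For knockout minus wild type in pericytes, no count is given for leaving out knockout pericyte replicates 2 to 4 (chosen after seeing the data). Without these 3 arrays only replicate 1, an array singled out for its values, remained in that group. The count without the 3 arrays at the end of this paragraph is thus not read as a test or as a check of the result. Leaving out replicate 1 of both knockout groups (also chosen after seeing the data) gave 129, with 1 of the 10 genes passing, Atf3. The endothelial count, 1, was 2 with every probe tested, with array weights and without both first arrays. The count for the difference of effects, 2, was 1 with no filter, 10 with array weights and 50 without both first arrays. For knockout pericytes minus endothelial cells, 3743 became 2467 with the stricter filter and 2207 without the 3 arrays.

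Signs turned for differences that had not passed. Without the 3 arrays, knockout minus wild type in pericytes was -0.016 for Egr1, -0.33 for Ier3, -0.20 for Fosb, -0.063 for Egr2, -0.41 for Atf3 and -0.32 for Egr3, the difference of effects was -0.11 for Egr2, -0.30 for Atf3 and -0.059 for Nr4a1, and Ier3 in knockout pericytes minus endothelial cells was -0.070. Without both first arrays, Junb in pericytes was 0.018, Fos and Atf3 in endothelial cells 0.068 and 0.11, and the Egr2 difference of effects -0.043. With array weights, Junb in pericytes was 0.024, Atf3 in endothelial cells 0.015, and the Fosb and Egr3 differences of effects 0.061 and 0.02. With quantile normalization the Egr1 difference of effects was 0.050.

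Leaving out each array in turn gave counts of 3 to 130 for pericytes by genotype, 1 to 2 for endothelial cells, 1 to 53 for the difference of effects, 3348 to 3939 for the cell types in knockout hosts and 3392 to 3827 in wild-type hosts. Of the 10 genes, 6 to 8 passed between cell types in knockout hosts, 6 to 10 in wild-type hosts, 0 to 1 by genotype in pericytes, and 0 to 0 in endothelial cells and for the difference. Signs turned within these ranges: in pericytes by genotype Junb -0.072 to 0.038, Ier3 -0.086 to 0.14, Egr3 -0.031 to 0.26, Nr4a1 -0.027 to 0.21 and Egr2 -0.031 to 0.20; in endothelial cells Fos -0.30 to 0.068, Atf3 -0.22 to 0.11, Nr4a1 -0.046 to 0.14, Junb -0.011 to 0.079 and Egr2 -0.083 to 0.24; for the difference Egr1 -0.13 to 0.036, Fosb -0.29 to 0.12, Junb -0.10 to 0.023, Egr2 -0.11 to 0.21 and Nr4a1 -0.092 to 0.14; and Atf3 between cell types in knockout hosts -0.35 to 0.19.

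Same-numbered arrays deviated together, with a coefficient over 0.1, in 1 to 3 of 4 pairs per comparison, and the tests did not pair samples by number. Between cell types, though, 4 of 4 pairs in wild-type hosts and 3 of 4 in knockout hosts correlated best with their own number. The sample titles also step alike in both cell types, so same-numbered arrays may come from the same tumours. If so, the cell type tests left that pairing out. The replicate block shared its numbers between genotypes, so pairing within a genotype was not fitted. With a replicate block 10 genes passed between cell types in wild-type hosts, Ier3 included (0.42, limma, adjusted p = 0.00994), and 8 in knockout hosts. Signals near the floor limit Junb, Nr4a1 and the endothelial values of Egr2, Egr3, Ptgs2, Cebpb, Id2, Dusp4 and Gadd45b.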
